A study of Mus musculus with 19 samples.

Results

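Genes that encode RNA-binding proteins of the Elavl, Rbfox, Rbpms and Ptbp families, 10 in all, were followed in the RNA-seq libraries of sorted retinal ganglion cells (RGCs). They are Elavl2, Elavl3, Elavl4, Rbfox1, Rbfox2, Rbfox3, Rbpms, Rbpms2, Ptbp1 and Ptbp2, chosen by symbol, and all 10 were found among the 47069 genes of the deposited count tables through their Ensembl identifiers in the GRCm38 annotation. The study asked which genes differ between RGCs whose axons stay on the same side of the brain at the optic chiasm (ipsilateral, iRGCs) and those whose axons cross it (contralateral, cRGCs). Retinas came from E16.5 mouse embryos of a C57/DBA F1 background, with males and females pooled, and the labels give the genotype as WT. Both populations carried a Rosa26 reporter in which a CAG promoter drives the nuclear envelope protein Sun1 fused to GFP once Cre has removed a stop cassette.

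The iRGCs were GFP-positive cells from embryos with Slc6a4-Cre, a transgenic line in which sequences of the serotonin transporter gene drive Cre. The cRGCs were GFP-positive cells from embryos with Pou4f2-Cre, in which Cre was targeted to the Brn3b locus, and the ventrotemporal retina, where iRGCs arise, had been cut away. GFP marks every descendant of a cell that once made Cre, so it does not report the current state of the Slc6a4 or Pou4f2 gene. The study states that iRGCs begin to be born later, so that the iRGCs collected were younger on average than the cRGCs. Cell age and the side of projection cannot be told apart here. There were 3 libraries of polyA RNA per population, with 28193178 to 33638083 reads counted on genes in each, and nothing in the labels says whether the libraries of a population came from separate litters, so that p-values measure the spread between these libraries, which may be technical. The library codes in the labels begin with EH10 for iRGCs and with EH13 for cRGCs, and what these codes stand for cannot be told apart from the population.

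Proteins of these families decide how a transcript is spliced and how long it lasts. Elavl2, Elavl3 and Elavl4 (HuB, HuC and HuD) bind U-rich and AU-rich stretches and stabilise transcripts in neurons, whereas their relative Elavl1 (HuR) is made in most cells. Rbfox proteins bind UGCAUG and promote or block neighbouring exons, and Rbfox3 is the NeuN antigen of mature neurons. Rbpms is widely used as a marker of RGCs in the mature retina. Ptbp1 binds pyrimidine-rich RNA and keeps neuronal exons out of transcripts in progenitors and non-neuronal cells, and neurons replace it with Ptbp2, whose own transcript is one of its targets.

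Expression is reported in CPM (counts divided by the TMM-scaled library size and brought to a common total), with the mean ± SD of 3 libraries. Each log2 fold change compares iRGCs with cRGCs, so that a negative value means less in iRGCs, and comes from edgeR's quasi-likelihood test with Benjamini-Hochberg adjustment over the 15941 genes that passed the filter on low counts. The threshold was an adjusted p-value of 0.1. All 10 regulators passed the filter. In iRGCs, 8 of the 10 were lower (23.1% of all tested genes were) and 1, Ptbp1, was higher (23.3% of all tested genes were). Ptbp2 was not past the threshold. With a log2 fold change beyond 1 as a further condition, the counts stayed at 8 lower (11.0% of tested genes) and 1 higher (12.1% of tested genes). The values of the 2 populations did not overlap for 9 of the 10, against 55.3% of all tested genes. The 8 lower genes had 2.63 to 3.99 times more transcript in cRGCs, and their median log2 fold change was -1.74. The median over the 10 was -1.61, beside 0.00 over all tested genes. In bulk RNA, fewer cells that express a gene and less of its RNA per cell cannot be told apart.

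**Figure D1:**
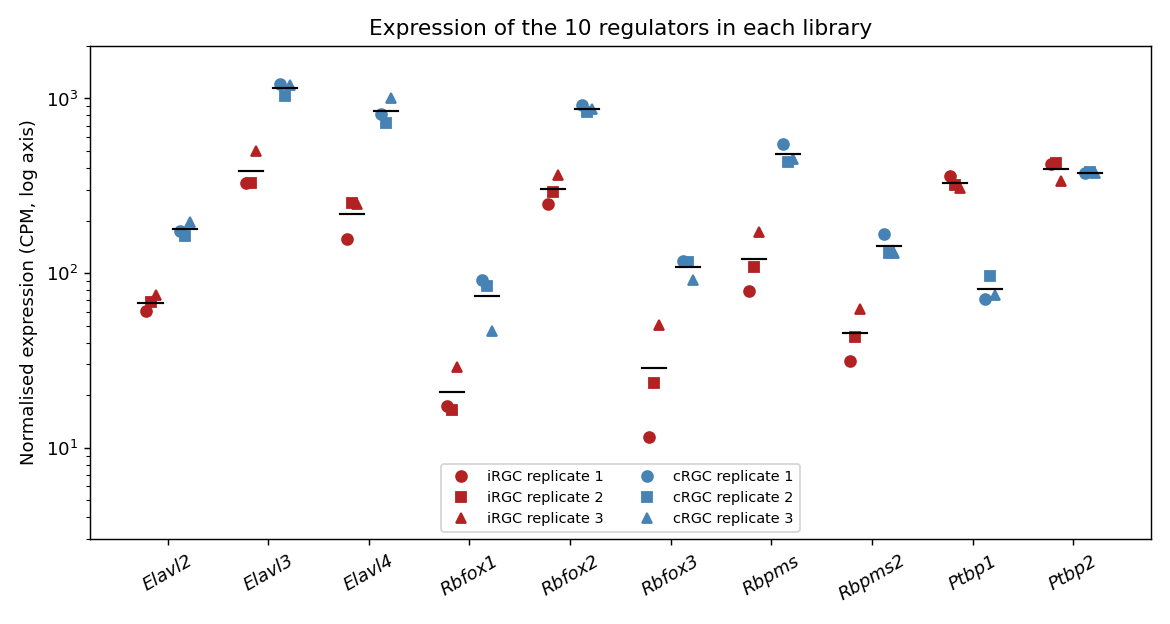
Normalised expression in CPM on a log axis for the 10 regulators, with 1 point per library (3 iRGC libraries in red, 3 cRGC libraries in blue, marker shape by replicate) and the mean of each population as a black line. The points of both populations are apart for every gene but Ptbp2, with Ptbp1 the one gene whose iRGC points lie above the cRGC points.

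Ptbp1 was the regulator that was higher in iRGCs. It lies on the plus strand of chromosome 10 at 79854427 to 79864771 (GRCm38). It had 360, 318 and 309 CPM in the iRGC libraries and 71.4, 96.3 and 75.3 CPM in the cRGC libraries, that is 329 ± 27.2 against 81.0 ± 13.4 CPM (n = 3 each). The lowest iRGC library was thus well above the highest cRGC library. The log2 fold change was 2.02 (SE 0.14, edgeR adjusted p = 0.000201), a 4.06-fold difference. Of the exonic bases of Ptbp1, 20.7% are shared with genes on the other strand (Plppr3, E130317F20Rik and Gm17134), and the strand setting of the counting is not given in the sources used here, so its counts may miss or include reads of these genes. Plppr3, the one of them with high counts, ran the other way, with 7147 to 9967 counts in iRGC and 17064 to 19667 counts in cRGC libraries.

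Ptbp2, the neuronal relative of Ptbp1, was almost level. It lies on the minus strand of chromosome 3 at 119718742 to 119784466. It had 422, 426 and 339 CPM in iRGCs and 375, 378 and 376 CPM in cRGCs, and the populations overlapped. The log2 fold change was 0.07 with a 95% interval from -0.15 to 0.30 (edgeR adjusted p = 0.663), so these libraries do not leave room for a difference of the size seen in Ptbp1. With library totals in place of TMM it was 0.28 (adjusted p = 0.0992), in a fit in which 32.0% of all tested genes were higher. The cRGC libraries lay within a coefficient of variation of 0.461% of each other, against 12.5% in iRGCs.

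The counts are sums over a gene and do not show which exons its transcripts hold, although the known link between both genes is an exon. Ptbp1 protein causes skipping of an exon of 34 bases in the Ptbp2 transcript, which then loses its reading frame, and the Ptbp1 transcript has a matching exon of 34 bases. Both exons are shown here with the 120 intronic bases before them, read on the transcribed strand from the GRCm38 genome, because they are the sequences through which the level of one gene is known to act on the transcript of the other. Capitals in the introns mark the letters TCTT, a core of the pyrimidine motifs that Ptbp1 binds, and the exons are in capitals throughout.
Ptbp2 intron, chr3:119724646-119724765, minus strand: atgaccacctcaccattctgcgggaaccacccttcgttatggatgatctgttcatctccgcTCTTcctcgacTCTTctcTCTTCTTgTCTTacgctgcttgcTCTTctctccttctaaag
Ptbp2 exon, chr3:119724612-119724645, minus strand: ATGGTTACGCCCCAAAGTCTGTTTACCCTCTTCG
Ptbp1 intron, chr10:79861894-79862013, plus strand: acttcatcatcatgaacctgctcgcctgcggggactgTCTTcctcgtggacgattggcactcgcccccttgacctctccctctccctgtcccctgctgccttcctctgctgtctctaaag
Ptbp1 exon, chr10:79862014-79862047, plus strand: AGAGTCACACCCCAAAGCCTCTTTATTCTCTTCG

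TCTT was searched on the transcribed strand alone, since the protein binds RNA, and overlapping matches were counted. The Ptbp2 window held 6 matches, of which a pair overlaps, and the Ptbp1 window held 1. Among 177895 windows of the same length before internal exons of protein-coding transcripts, the median was 1 match, 67.6% held at least 1, and 0.363% held 6 or more. Pyrimidines made up 71.7% of the Ptbp2 window and 69.2% of the Ptbp1 window. All 3 annotated coding transcripts that span each exon include it. Only transcripts annotated as protein-coding were read, so forms that skip the exon and lose the reading frame could be missing from this count. A match is a description of the sequence, and the inclusion of these exons in iRGCs or cRGCs was not measured.

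Because Ptbp2 was level while Ptbp1 differed, the balance of both shifted within each library. The ratio of Ptbp2 to Ptbp1 counts was 1.17, 1.34 and 1.10 in the iRGC libraries and 5.25, 3.93 and 5.00 in the cRGC libraries. No iRGC library reached the cRGC values, and the mean ratio was 3.91-fold higher in cRGCs on the log scale. An exact two-sided permutation test gave p = 0.1, the smallest p that 3 libraries against 3 allow, and 0.2 after Benjamini-Hochberg adjustment over the 10 ratios tested. Ptbp3, the third gene of the family, with a wider expression, had 83.2, 101 and 83.8 CPM in iRGCs and 89.2, 83.3 and 110 CPM in cRGCs. It was not past the threshold either (log2 fold change -0.08, 95% interval -0.35 to 0.20, edgeR adjusted p = 0.721).

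The 3 neuronal Elavl genes were all lower in iRGCs. Elavl3 (chromosome 9, 22015005 to 22052023, minus strand) had the most counts of them, with 327, 328 and 501 CPM in iRGCs and 1214, 1034 and 1191 CPM in cRGCs. Its populations were far apart, although iRGC replicate 3 stood above the other iRGC libraries, and the log2 fold change was -1.57 (SE 0.18, edgeR adjusted p = 0.000288). Elavl4, which stabilises transcripts of growing axons such as that of Gap43, lies at 110203722 to 110351909 on the minus strand of chromosome 4. It had 157, 251 and 250 CPM in iRGCs and 811, 726 and 1008 CPM in cRGCs. This was the largest difference of the family, at -1.95 (SE 0.20, edgeR adjusted p = 0.000241), with no overlap.

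Elavl2, also on the minus strand of chromosome 4 (91250763 to 91400785), had 61.0, 67.9 and 74.5 CPM in iRGCs and 175, 164 and 197 CPM in cRGCs. It did not overlap between populations and had the smallest spread among iRGC libraries of the 8 lower genes, with a coefficient of variation of 9.95%, and a log2 fold change of -1.40 (SE 0.12, edgeR adjusted p = 0.000205). Elavl1 went the other way, with 165, 139 and 117 CPM in iRGCs and 94.8, 110 and 112 CPM in cRGCs. Its log2 fold change of 0.41 passed the threshold narrowly (edgeR adjusted p = 0.0502), and the adjusted p rose to between 0.103 and 0.196 without iRGC replicate 1 or 2 or cRGC replicate 1 or 3. The ratio of Elavl2 to Elavl1 counts was 0.370, 0.488 and 0.638 in iRGC and 1.85, 1.48 and 1.75 in cRGC libraries, a 3.47-fold difference with no overlap (exact permutation p = 0.1, adjusted 0.2).

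All 3 Rbfox genes were lower in iRGCs as well. Rbfox2 (chromosome 15, 77078990 to 77307004, minus strand), the member that many tissues express, had 249, 292 and 365 CPM in iRGCs and 914, 838 and 876 CPM in cRGCs. The cRGC libraries were close to each other and well above all iRGC libraries, with a log2 fold change of -1.54 (SE 0.15, edgeR adjusted p = 0.000207). Rbfox1, which spans 1526172 bases of chromosome 16 (5885355 to 7411526, plus strand), had 17.3, 16.4 and 28.9 CPM in iRGCs and 91.1, 84.2 and 46.8 CPM in cRGCs. Here cRGC replicate 3 came nearest to the iRGC libraries without reaching them, and the log2 fold change was -1.83 (SE 0.30, edgeR adjusted p = 0.00142).

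Rbfox3 (chromosome 11, 118489762 to 118911597, minus strand) was the most uneven regulator. It had 11.5, 23.6 and 50.5 CPM in iRGCs and 117, 116 and 91.2 CPM in cRGCs. The iRGC libraries thus differed among themselves by more than for any other regulator, with a coefficient of variation of 69.9% against 13.5% in cRGCs, but did not overlap with the cRGC libraries. The log2 fold change was -1.92 (SE 0.44, edgeR adjusted p = 0.0075). Without iRGC replicate 3 it was -2.63, and without iRGC replicate 1 it was -1.54, both past the threshold.

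The Rbpms pair closed the set. Rbpms (chromosome 8, 33782643 to 33929863, minus strand) had 78.7, 109 and 171 CPM in iRGCs and 550, 431 and 452 CPM in cRGCs. The populations did not overlap, with a 3.99-fold difference and a log2 fold change of -2.0 (SE 0.26, edgeR adjusted p = 0.000477). It was close to those of Elavl4, Rbfox1 and Rbfox3, and the order of these 4 changed between fits. Rbpms2, its close relative on the plus strand of chromosome 9 (65629648 to 65660528), had 31.4, 43.1 and 62.5 CPM in iRGCs and 167, 131 and 130 CPM in cRGCs. Again no iRGC library reached a cRGC library, and the log2 fold change was -1.65 (SE 0.24, edgeR adjusted p = 0.000741).

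**Figure D2:**
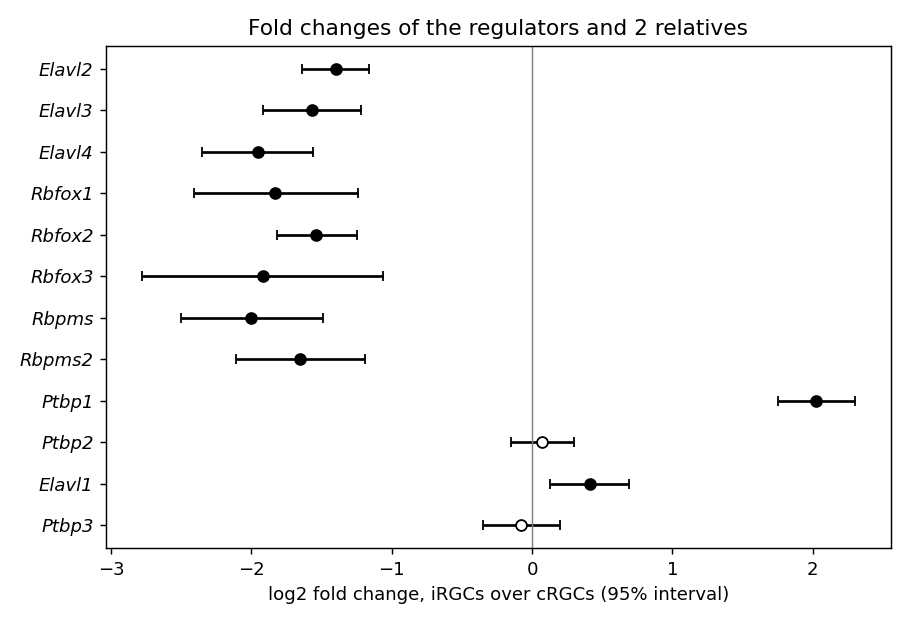
log2 fold changes of iRGCs over cRGCs with 95% intervals for the 10 regulators and their relatives Elavl1 and Ptbp3, with filled points past the threshold of adjusted p under 0.1 in edgeR's quasi-likelihood test. The 8 lower genes lie between -2.0 and -1.40, Ptbp1 lies at 2.02, and the intervals of Ptbp2 and Ptbp3 include 0.

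The iRGC libraries were not alike for these genes. Of the 8 lower genes, 7 had their highest iRGC value in replicate 3 and 7 had their lowest in replicate 1. These were not the same 7, since Elavl4 was highest and Rbfox1 lowest in replicate 2. The summed CPM of 16 markers of RGCs was 3127, 4423 and 6324 in iRGC replicates 1, 2 and 3, and 15631, 14350 and 17637 in the cRGC libraries. Within cRGCs the picture was mixed. In cRGC replicate 3, which had the highest marker sum, Elavl2 and Elavl4 were at their highest cRGC value. Rbfox1, Rbfox3 and Rbpms2 were at their lowest there, and Elavl3, Rbfox2 and Rbpms lay in between. Ptbp1 had the order of the retinal progenitor markers within both populations. The summed CPM of 17 such markers was 11365, 10174 and 9044 in the iRGC libraries and 2394, 3592 and 3004 in the cRGC libraries, with the highest sum in the library with the most Ptbp1 in each population. How many of all tested genes had these orders of libraries was not counted. The part of either marker list in the differences of the regulators was not tested.

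Levels of different genes can be compared once the CPM are divided by the exonic length of each gene in kb. On this scale, Ptbp1 led in iRGCs with 69.4 ± 5.75 CPM per kb, followed by Elavl3 at 55.9, Ptbp2 at 43.1, Elavl4 at 40.7 and Rbfox2 at 37.1 CPM per kb. Ptbp1 and Elavl3 overlapped between libraries, as did Ptbp2 with Elavl4 and Elavl4 with Rbfox2, whereas Elavl3 stood clear of Ptbp2. With the longest transcript as length, Ptbp2 (97.8) came before Elavl3 (76.9 CPM per kb) and overlapped with it. Rbpms and Rbpms2 came next with 18.3 and 18.2 CPM per kb and could not be ordered (with the longest transcript, Rbpms was at 47.0 and Rbpms2 at 23.0), and Elavl2 (8.16), Rbfox3 (4.90) and Rbfox1 (4.74 CPM per kb) were the lowest. In cRGCs the order opened with Elavl3 at 166 and Elavl4 at 158 CPM per kb, which overlapped, then Rbfox2 at 108, clear of its neighbours. Rbpms (72.9) and Rbpms2 (57.1 CPM per kb) overlapped, Ptbp2 stood alone at 41.0 CPM per kb, and Elavl2, Rbfox3, Ptbp1 and Rbfox1, from 21.5 to 16.8 CPM per kb, closed the order with each overlapping the next. The middle of the cRGC order also depended on the length: with the longest transcript, Rbpms (188) stood above Rbfox2 (127), Ptbp2 (93.0) and Rbpms2 (72.0 CPM per kb), and none of these 4 overlapped with the next. Ptbp1 was first of 10 in iRGCs and ninth in cRGCs with either length, although it overlapped with the second and with the tenth gene.

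Within a family, the make-up on the per-length scale changed most for the Ptbp genes. Ptbp1 made up 55.8% ± 2.63 of the summed per-length level of Ptbp1, Ptbp2 and Ptbp3 in iRGCs and 24.1% ± 3.33 in cRGCs, where the error is the SD of 3 libraries. The share of Ptbp2 went from 34.6% ± 2.00 to 58.1% ± 1.88. Among the neuronal Elavl genes, Elavl3 held 53.3% ± 5.90 in iRGCs and 48.3% ± 2.92 in cRGCs and Elavl4 held 38.8% ± 5.87 and 45.4% ± 2.93, so that the shares of Elavl3 and Elavl4 differed by about the spread between libraries. The smaller share of Elavl2 did not overlap between populations, with 7.91% ± 0.872 in iRGCs and 6.23% ± 0.211 in cRGCs. Rbfox2 held 80.2% ± 4.89 of the Rbfox level in iRGCs and 75.4% ± 4.32 in cRGCs.

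**Figure D3:**
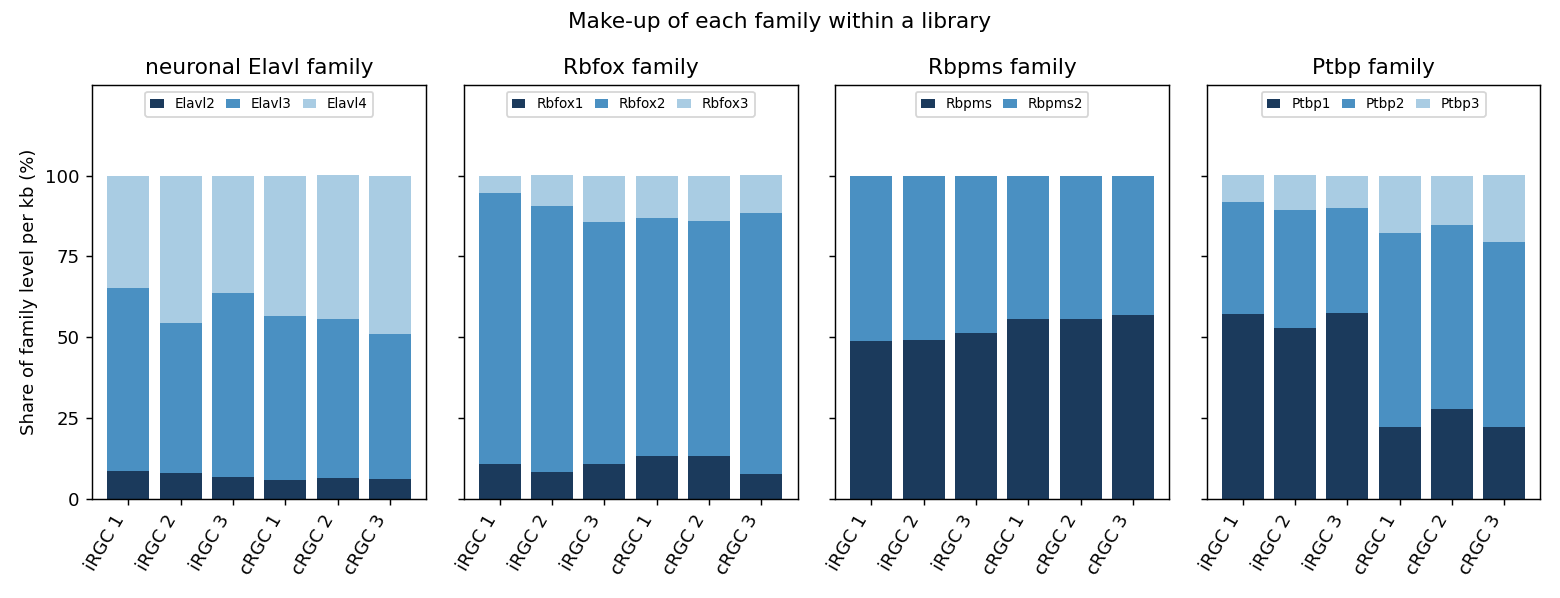
Share in percent of each gene in the summed level per kb of exon of its family, with 1 stacked bar for each of the 6 libraries. The dark Ptbp1 segment takes 52.8% to 57.5% of the Ptbp bars in iRGCs and 22.2% to 28.0% in cRGCs, while Rbpms takes 48.9% to 51.2% and 55.6% to 57.0% of its bars.

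Ptbp3 over Ptbp1 separated the populations as well, with 0.231, 0.319 and 0.271 in iRGCs and 1.25, 0.865 and 1.46 in cRGCs, a 4.29-fold difference (exact permutation p = 0.1, adjusted 0.2). The ratios among the neuronal Elavl, the Rbfox and the Rbpms genes differed by less. Elavl4 over Elavl2 was 2.58, 3.70 and 3.35 in iRGCs and 4.64, 4.44 and 5.12 in cRGCs, and Rbpms2 over Rbpms was 0.399, 0.395 and 0.365 in iRGCs and 0.304, 0.305 and 0.288 in cRGCs. Neither of these overlapped, and both had the smallest possible exact permutation p of 0.1 (adjusted 0.2). Elavl3 over Elavl2, Elavl4 over Elavl3 and the 3 ratios among the Rbfox genes overlapped between populations, with exact permutation p-values from 0.3 to 0.7 (adjusted 0.375 to 0.7). For these the libraries do not show whether the members of a family differ in how far they fall.

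**Figure D4:**
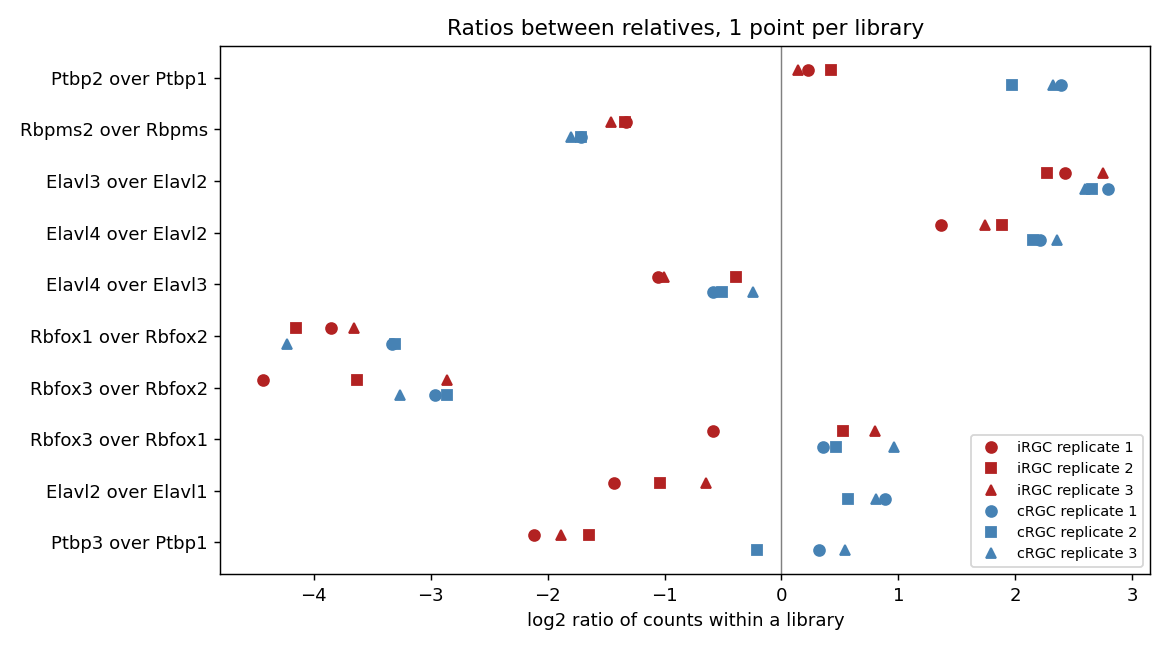
log2 ratio of the counts of 2 relatives within each library, 1 point per library, iRGCs in red above cRGCs in blue. The populations are furthest apart for Ptbp3 over Ptbp1, by 2.1 on the log2 scale, and for Ptbp2 over Ptbp1, by 1.97, lower in iRGCs, and they overlap for all 3 Rbfox ratios.

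Further RNA-binding proteins were examined by list. Among 25 other splicing regulators, 24 were tested, of which 9 were lower in iRGCs and 6 higher (7 and 9 with library totals in place of TMM), beside 23.1% and 23.3% of all tested genes (17.8% and 32.0% with library totals), with a median of -0.09, which became 0.12 with library totals. The largest falls were those of 3 Celf genes, whose proteins bind GU-rich RNA: Celf5 (70.1 ± 16.7 against 293 ± 28.3 CPM, log2 fold change -2.07), Celf6 (-1.98) and Celf4 (-1.89). Nova1 and Nova2, regulators of synaptic exons, were also lower, by -0.70 and -1.76, and so was Srrm3 at -1.59. Srrm4, which promotes neuronal microexons, was not past the threshold, with 169 ± 25.2 against 186 ± 28.3 CPM (edgeR adjusted p = 0.514). Among genes with at least 10 CPM in either population, the largest rises in iRGCs were in Rbm24 (1.55), Qk (332 ± 23.1 against 143 ± 18.0 CPM, 1.22) and Mbnl2 (1.07), and below that level Mbnl3 was also higher (8.16 against 1.58 CPM, 2.36).

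The hnRNP and SR proteins, which most cells use for splicing, moved by small amounts and mostly upward in iRGCs. Of 35 tested, 26 were higher and 2 lower, beside 23.3% and 23.1% of all tested genes, with a median of 0.42 (0.62 with library totals). Of the higher genes, only 1 had a log2 fold change above 1. Hnrnpa2b1 was the most abundant, at 2116 ± 103 against 1496 ± 64.9 CPM (0.50, edgeR adjusted p = 0.00312). The largest rises were in Srsf9 (1.12), Hnrnpf (0.96) and Hnrnpm (0.67). The 2 lower genes were Srsf12, with 7.80 ± 3.11 against 32.3 ± 2.91 CPM (-2.05), and Pcbp3 (-0.90).

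Among 7 RNA-binding proteins known from progenitors, 3 were higher in iRGCs and 1 lower, beside 23.3% and 23.1% of all tested genes. The 3 higher genes were Msi1, which marks neural stem cells (574 ± 81.5 against 247 ± 26.4 CPM, 1.21), Igf2bp1 (1.14) and Igf2bp2 (0.91). Lin28b was lower, by -0.71 (edgeR adjusted p = 0.0752), a call lost without any 1 of iRGC replicates 1 and 3 and cRGC replicates 1 and 3 (adjusted p from 0.143 to 0.239) or with library totals (0.198). The median of this list was 0.10 (0.31 with library totals, with 4 higher and 0 lower). Of 17 proteins of mRNA transport and translation, 6 were higher and 5 lower, beside the same shares of all tested genes, with a median of -0.14 that became 0.06 with library totals. Purb (1.06), G3bp1 (0.79) and Fmr1 (0.60) led the higher genes, and Cpeb3 (-1.52), Cpeb2 (-1.39) and the transport protein Stau2 (-0.95) led the lower genes.

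REST represses neuronal genes outside neurons. Of 9 genes of its complex, 4 were higher in iRGCs and 3 lower, with a median of 0.20 (5, 1 and 0.41 with library totals). Of all tested genes, 23.3% were higher and 23.1% lower (32.0% and 17.8% with library totals). Rest itself had 86.9, 71.2 and 60.3 CPM in iRGCs and 23.7, 20.8 and 23.5 CPM in cRGCs, without overlap (log2 fold change 1.68, edgeR adjusted p = 0.000212). Rcor1 (0.94) and Hdac1 (0.92) were also higher, and Rcor3 (-0.77), Kdm1a (-0.33) and Sin3b (-0.23) were lower, the last 2 with adjusted p-values of 0.283 and 0.844 under library totals. The call of Sin3b (edgeR adjusted p = 0.0983) held in 5 of 15 alternatives, and that of Kdm1a was also lost without iRGC replicate 2 (adjusted p = 0.111). Besides Ptbp2, which was not past the threshold, 2 genes whose transcripts carry exons that Ptbp proteins repress were measured. Both were lower in iRGCs, as were 23.1% of all tested genes. The inclusion of their exons was not measured, and a part of Ptbp1 in their levels was not tested. Dlg4, which encodes PSD-95, was lower in iRGCs with 111 ± 21.3 against 247 ± 11.3 CPM (-1.16, edgeR adjusted p = 0.000418), and Gabbr1, a GABA-B receptor subunit, was lower with 267 ± 64.4 against 751 ± 49.7 CPM (-1.49, edgeR adjusted p = 0.000279).

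**Figure D5:**
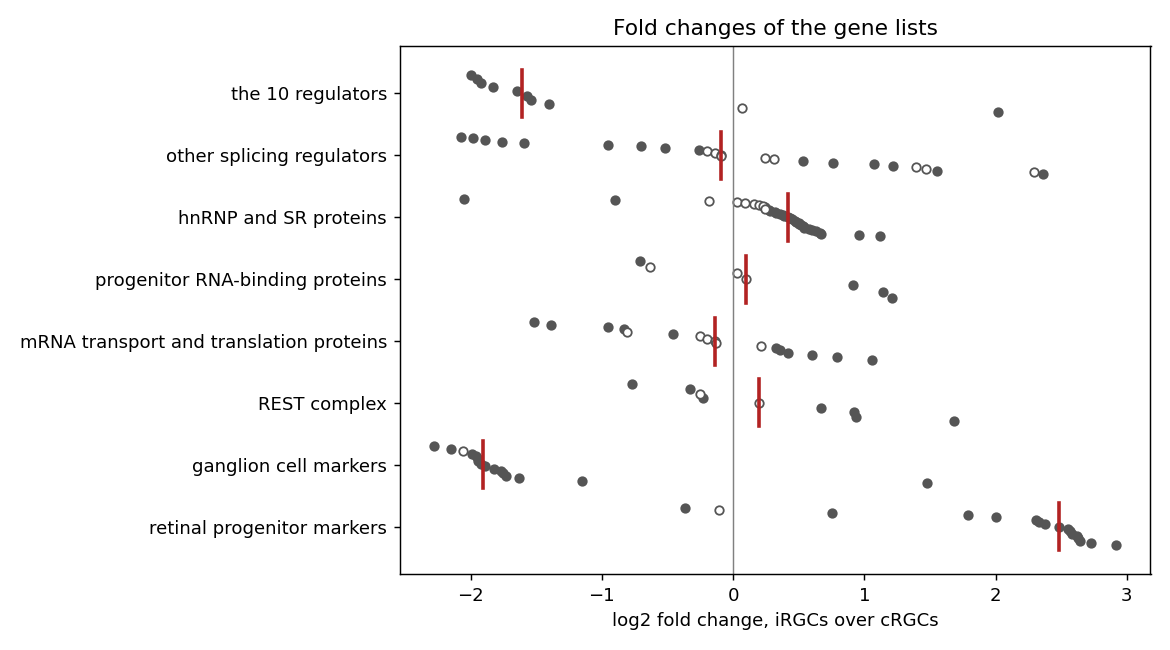
log2 fold changes of iRGCs over cRGCs for each tested gene of 8 lists, with filled points past the threshold of adjusted p under 0.1 and a red line at the median of each list. The medians of the 10 regulators and of the RGC markers lie at -1.61 and -1.91, that of the hnRNP and SR proteins at 0.42 and that of the retinal progenitor markers at 2.48.

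Markers of the cells that the sorted populations could hold were measured beside the regulators, and the most abundant or leading gene of a list is the one with the highest mean CPM over all 6 libraries. The counts of each marker list stand beside 23.3% of all tested genes higher in iRGCs and 23.1% lower. Of 16 RGC markers, 14 were lower in iRGCs and 1 higher, with a median of -1.91. Tubb3, the most abundant, had 871 ± 244 against 2692 ± 326 CPM, and the higher gene was Atoh7, a factor of newborn RGCs (178 ± 57.2 against 63.4 ± 27.3 CPM). Pou4f2 itself was lower in iRGCs (102 ± 29.6 against 227 ± 57.4 CPM, edgeR adjusted p = 0.00424). Zic2, a factor of iRGCs, was higher in every iRGC library (133, 173 and 157 against 57.0, 60.2 and 65.7 CPM), but Slc6a4, whose sequences drive Cre in the iRGC line, had 2.06, 33.4 and 116 CPM in iRGCs and 48.1, 35.4 and 30.5 CPM in cRGCs and was not past the threshold (edgeR adjusted p = 0.768). The library with 2.06 CPM of Slc6a4, iRGC replicate 1, was also the one with the lowest RGC markers, and without it the 8 genes remained lower and Ptbp1 higher past the threshold.

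Of 17 retinal progenitor markers, 15 were higher in iRGCs and 1, Six3, lower (0 with library totals), with a median of 2.48, and Ccnd1, the most abundant, had 2844 ± 453 against 509 ± 253 CPM. All 9 neurogenic precursor markers were higher (median 2.03), with Hes6 the most abundant over all libraries (293 CPM in iRGCs, where Btg2 had 306, and 105 CPM in cRGCs), and with sums of 1450, 1517 and 1415 CPM in iRGCs and 292, 504 and 386 CPM in cRGCs. Amacrine cells also use Elavl and Rbfox genes. Of 8 amacrine markers, 7 were higher in iRGCs (median 1.50, most abundant Tfap2b), with sums of 383, 348 and 477 CPM in iRGCs and 135, 179 and 124 CPM in cRGCs. Of 6 markers of photoreceptor precursors, all 5 tested were higher (median 2.1), with Otx2 the most abundant, sums of 784, 611 and 582 against 98.3, 194 and 136 CPM, and Rcvrn at or near 0 in all libraries. Of 4 horizontal cell markers, 1, Prox1, was higher, and the sums were 265, 283 and 232 against 237, 247 and 392 CPM, with Onecut2 the most abundant.

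Markers of cells outside the neural retina were measured as well. Rbpms is also known from cells of the vessel wall, and mural markers summed to 138, 279 and 121 CPM in iRGCs and 21.4, 32.4 and 23.7 CPM in cRGCs, with 4 of the 7 tested of 10 higher and Notch3, which progenitors also use, the most abundant. Endothelial markers summed to 430, 582 and 431 against 86.1, 107 and 70.2 CPM, and most of each sum came from Kdr. Kdr itself was highest in iRGC replicate 3 (366, 320 and 418 CPM in replicates 1, 2 and 3). The other tested endothelial genes had their lowest iRGC value in that library, at 0.0631 to 11.8 CPM, so these sums do not follow them. Of the 9 endothelial genes 4 were tested, and all 4 were higher, while Cdh5, which was not tested, had 474, 2630 and 5 counts in iRGCs and 0 in each cRGC library. Both sums were highest in iRGC replicate 2. Erythroid markers (all 4 tested of 6 higher, led by Hbb-bs) summed to 12.2, 92.7 and 15.2 against 0, 5.11 and 0.290 CPM. Microglia markers (4 of the 6 tested of 7 higher, led by Csf1r) summed to at most 24.8 CPM, fibroblast markers (1 of the 3 tested of 6 higher, led by Col1a2, Lum at 0 throughout) to at most 27.1 CPM, lens markers (1 of 6 tested and not past the threshold, led by Cryaa, Mip and Lim2 at 0 throughout) to at most 10.3 CPM and pigment epithelium markers (4 of 6 tested, none past the threshold, led by Mitf) to at most 7.63 CPM. Markers of astrocytes and the optic stalk (2 of 5 tested, 1 higher and 1 lower) summed to 207, 149 and 179 against 27.6, 47.6 and 31.6 CPM. Slc1a3, which progenitors also express, made up nearly all of the sums in iRGCs and most of them in cRGCs (19.2, 41 and 23.7 CPM). Gfap, Pax2 and S100b were near 0. Of 10 genes of the response to dissociation, 7 were higher in iRGCs (median 1.56, led by Fos), with sums of 1657, 3147 and 1263 against 574, 669 and 714 CPM. The part of any of these cells or of the response in the differences of the regulators was not tested.

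For each regulator, the gene with the most similar profile was taken from the 10275 genes with a mean of at least 10 CPM, by Pearson's r of log2 CPM over the 6 libraries. All libraries share the split into 2 populations, and 17.1% to 25.1% of the genes had an r above 0.9 with each of the 9 regulators that differed. Ptbp1 was closest to Chaf1b, a subunit of the factor that assembles chromatin at replication (r = 0.9997), which had 47.3, 39.6 and 38.1 CPM in iRGCs and 6.96, 9.49 and 7.39 CPM in cRGCs. Elavl2 was closest to Bcl11a (0.9992), Elavl3 to Amz2 (0.9997), Elavl4 to Pde1c (0.9984) and Rbfox2 to the microtubule-binding protein gene Map4 (0.9997). Rbfox1 was closest to 4933431E20Rik (0.9979), Rbfox3 to Arl4c (0.9993), Rbpms to Panx1 (0.9997) and Rbpms2 to the potassium channel gene Kcnh4 (0.9991). For Ptbp2, which did not differ between populations, the closest gene was Cbx5 (0.9939), and 0.292% of genes had an r above 0.9 with it.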

How the data were processed

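RNA-seq was measured in 3 libraries of iRGCs and 3 of cRGCs. The study's 13 ATAC-seq samples were not used here. The authors aligned reads of sorted cells to mm10 with HISAT2 2.1.0 and counted them on Ensembl GRCm38 genes with HTSeq 0.11.1, and they deposited raw counts per gene without normalization. Rows that name no gene were dropped before library sizes were summed, and reads on no gene were 12.3% to 23.2% of the uniquely aligned reads. Symbols, positions and exon lengths came from GENCODE M21 (GRCm38), and exon and intron sequences from the GRCm38.p6 genome of RefSeq.

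Counts were fitted in R 4.3.3 with edgeR 4.0.16 (filterByExpr, TMM, quasi-likelihood test, population as the only term) and adjusted over 15941 genes. The biological coefficient of variation was 36.3%. SEs are the absolute log2 fold change over the square root of F. Ratios within a library were compared with exact permutation tests (scipy) over 10 pairs. The fits were tested on simulated data. The alternatives were DESeq2's size factors, upper quartile factors or library totals in place of TMM, the DESeq2 1.42.0 test, limma 3.58.1 voom, no filter, at least 10 counts in every library, protein-coding genes alone, the replicate number as a block, each library left out, an adjusted p-value under 0.05, a log2 fold change beyond 1, and the longest transcript in place of the union of exons.

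Named genes are the 10 regulators, Elavl1 and Ptbp3, and of each list of RNA-binding or REST genes the 3 with the largest change in each direction among those past the threshold with at least 10 CPM in either population. Also named are the most abundant gene of each marker list and of the hnRNP and SR list, and the gene closest in profile to each regulator. Nova1, Nova2, Srrm3, Srrm4, Mbnl3, Cdh5, Btg2, Atoh7, Pou4f2, Six3, Prox1, Zic2, Slc6a4, the markers given as at or near 0 and the genes overlapping Ptbp1 were named besides these after their values were seen. The regulators, the lists and the comparisons were chosen with earlier results of these data known. A list of microRNA host transcripts is not reported here.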

Additional observations from a re-analysis of the deposited data

How the results depend on the processing

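The 9 regulators past the threshold kept their direction and stayed past it under each of the 15 alternative fits. Without 1 library, the log2 fold changes ranged from -1.48 to -1.31 for Elavl2, -1.82 to -1.47 for Elavl3, -2.06 to -1.76 for Elavl4, -2.15 to -1.67 for Rbfox1, -1.71 to -1.41 for Rbfox2, -2.63 to -1.54 for Rbfox3, -2.36 to -1.77 for Rbpms, -1.95 to -1.44 for Rbpms2, 1.93 to 2.18 for Ptbp1 and 0.02 to 0.16 for Ptbp2. Library totals in place of TMM raised the median of all tested genes by 0.20 and Ptbp2 to 0.28 (adjusted p = 0.0992), so that 2 regulators rather than 1 were higher, as were 5100 rather than 3707 of the 15941 tested genes. Ptbp3 changed sign, to 0.13 with library totals, and ranged from -0.17 to 0.06 without 1 library (0.06 without cRGC replicate 3), never past the threshold. The difference in Rbfox3 over Rbfox1, -0.35 on the log2 scale, ran from -0.62 to 0.07 without 1 library. A log2 fold change beyond 1 left 1930 genes higher and 1758 lower of 3707 and 3688.

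With the longest transcript as length, the share of Ptbp1 was 48.4% in iRGCs and 19.3% in cRGCs, that of Ptbp2 in cRGCs 70.3%, and Rbpms held 66.9% and 72.3% of its pair rather than 49.7% and 56.1%.

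Replicate numbers are shared by both populations, but same-numbered libraries did not deviate together (r = -0.0121, -0.0237 and -0.055), and no library correlated best with its own number. The deviations are from the mean of each population, so the r values depend on each other. They cannot show whether same-numbered libraries share a batch. With the replicate block, Ptbp1 was at 2.03 and Rbfox3 at -2.16, 1 regulator was higher and 8 were lower, and 3316 genes were higher and 3435 lower. Elavl1 (0.40, adjusted p = 0.105), Lin28b (adjusted p = 0.101) and Sin3b (adjusted p = 0.164) were no longer past the threshold, and the differences in ratios were the same by construction. Depth does not limit these regulators, which had at least 357 counts in every library, but 3 libraries per population do not resolve differences of the size of that in Ptbp2.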
